A study of Nothobranchius furzeri with 15 samples.

Results

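The circles described are the 6 circular RNAs (circRNAs) assigned to 3 hosts linked to actin or myosin: cap2, LOC107383904 and LOC107377199. They are 6 of the 1810 circRNAs with deposited counts, taken as every row that names one of the 3 hosts, and each host gave 2 circles. The hosts were chosen from the muscle circular reads and the muscle age course of their circles in these same libraries. Muscle levels, muscle changes and the contrast of muscle with brain are therefore given as a description, with no test. LOC107383904 is mylk4a and LOC107377199 is filip1l by a RefSeq gene table, which was used for these names alone. Circles are called by host and a number in table order, so cap2.1 and cap2.2 both come from cap2.

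RNA of dissected brain and muscle was sequenced, after ribosomal RNA had been removed, in the turquoise killifish Nothobranchius furzeri, a short-lived fish used in studies of ageing. All fish were of strain GRZ-AD, with no treatment named in the labels, and aged 3.5, 8.5 or 14 weeks. Brain had 3 libraries per age (numbered 1 to 3) and muscle had 2 (libraries 1 and 3 at 3.5 and 8.5 weeks, 1 and 2 at 14 weeks), 15 in all. Nothing in the labels ties a library to its own animal, so p-values measure only how these samples differ among themselves, and that difference may be technical.

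A circRNA forms when the splicing machinery joins the end of an exon back to the start of the same or an earlier exon, which leaves a closed loop without free ends. Since a transcript can give either a circle or a linear messenger RNA, circular reads, linear reads and the share between them are separate readouts of a host. In muscle, actin filaments and myosin form the contractile sarcomere, whose filaments are cross-linked at the Z-disc. Cap2, a cyclase-associated protein, helps take apart actin filaments and recharge actin monomers; in mammals it is abundant in striated muscle and is also found in brain. Mylk4a belongs to the myosin light chain kinases, enzymes that phosphorylate the regulatory light chain of myosin. Filip1l resembles the filamin A interacting protein and in mammals has been linked to cell movement; filamins cross-link actin filaments.

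Coordinates are those of the deposited table, whose genome build is not given in the sources used here. Both cap2 circles lie on the minus strand of chromosome 12 and end at 15089623; cap2.1 starts at 15085191 and cap2.2 at 15085283, so they share 1 end and differ by 92 bases at the other. On the plus strand of chromosome 5, mylk4a.1 runs from 28710723 to 28714023 and mylk4a.2 from 28713365 to 28714809. These 2 share no end and overlap over 659 bases. On the plus strand of chromosome 1, filip1l.1 runs from 22580312 to 22598404 and filip1l.2 from 22596894 to 22598404. They share the downstream end, and filip1l.1 starts 16582 bases further upstream. Genomic spans ranged from 1445 bases (mylk4a.2) to 18093 bases (filip1l.1), beside a median of 5096.5 over all 1810 circRNAs. Both ends of all 6 circles were marked as exonic, as for 80.9% of all circRNAs. Because the 2 circles of a host cover the same gene, they are not independent of each other, and neither are their linear counts.

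**Figure D1:**
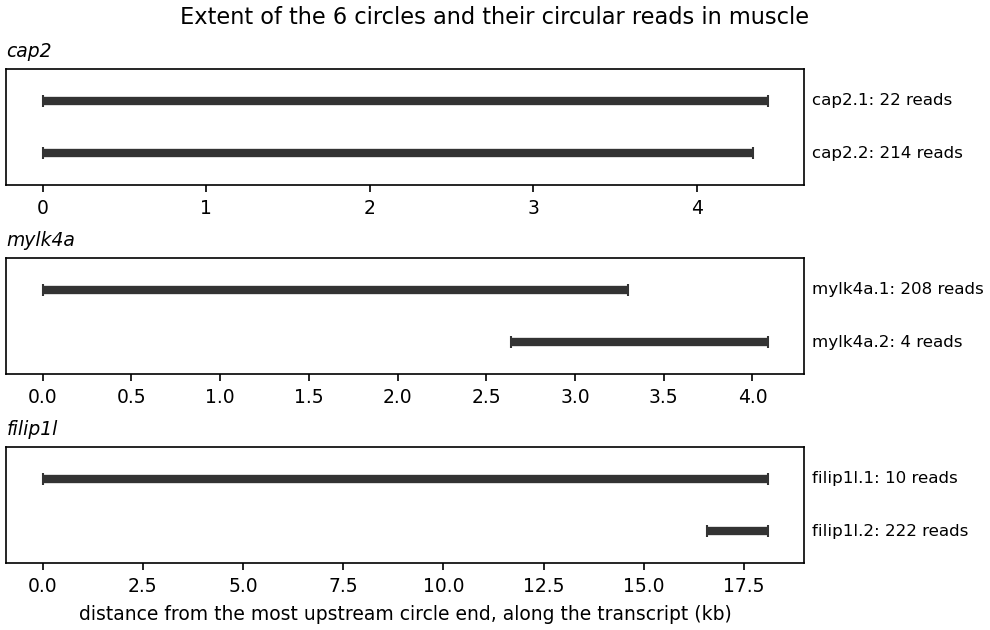
Extent of the 6 circles as distance along the transcript in kilobases from the most upstream circle end of the host, with the circular reads of each circle summed over the 6 muscle libraries. In each host 1 circle held most of the reads: 214 against 22 for cap2, 208 against 4 for mylk4a and 222 against 10 for filip1l.

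Libraries held 2095 to 4400 circular reads in brain and 1343 to 4269 in muscle, and 80405 to 135698 and 76515 to 122098 linear reads. Skeletal muscle markers (11 hosts matched a list of 17 genes, over 24 positions) made up 29.7% to 34.0% of linear reads in muscle. Some of these hosts, such as myom2a and myom2b, match the same listed gene. Neuron markers (15 hosts matched a list of 25 genes, again with paralogs) made up 4.60% to 6.13% of linear reads in brain. In muscle they made up 0.0114% to 0.0535%, so each tissue carried its own markers. Brain libraries 2 and 3 of 3.5 weeks stood apart: skeletal muscle markers took 2.504% and 1.80% of their linear reads, beside 0.184% to 0.390% in the other 7 brain libraries. This rise of the sum was uneven within the list. In libraries 1, 2 and 3 of 3.5 weeks, ttn.2.1 had 36, 324 and 198 linear reads and mybpc2b had 25, 214 and 223. The markers ryr1b (88, 87 and 67) and flnc.1 (7, 5 and 5) were not raised in libraries 2 and 3. The fibroblast marker postn, the only one of 9 listed with a count, was also higher in libraries 2 and 3 of 3.5 weeks (114 to 136 linear reads beside 1 to 12). Changes of the members in brain from 3.5 weeks are given with and without them. Of the other lists, 1 of 9 oligodendrocyte and Schwann cell genes (enpp6) and 1 of 10 endothelial genes (cdh5) had a count, and 0 of 8 smooth muscle genes did.

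Together the 6 circles held 680 of 14350 circular reads in muscle, or 4.74% (exact binomial 95% interval 4.40 to 5.10). At 3.5, 8.5 and 14 weeks that part was 5.59%, 4.32% and 4.90%. By library it was 7.15% and 4.32% at 3.5 weeks, 4.47% and 4.13% at 8.5 weeks, and 4.97% and 4.83% at 14 weeks. The range of 3.5 weeks overlapped with each older age, while both libraries of 14 weeks lay above both of 8.5 weeks. In brain they held 39 of 27811 circular reads, or 0.140% (0.0997 to 0.192), with 11, 13 and 15 reads at the 3 ages. Intervals cover counting error only, since reads without molecular identifiers are not independent molecules.

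The circle cap2.2 was nearly unread in young muscle and among the leading circles in older muscle, while the linear reads of its host differed little. Muscle libraries held 4 and 1 circular reads at 3.5 weeks, 72 and 57 at 8.5 weeks, and 40 and 40 at 14 weeks. Both libraries of 3.5 weeks lay below all 4 older ones. On the CPM scale, reads divided by the effective linear library size, the circle went from 30.8 ± 29.7 (SD, n = 2) to 512 ± 2.25 and 442 ± 77.1. Among all muscle circles by mean CPM, it ranked 141 at 3.5 weeks, 7 at 8.5 weeks and 3 at 14 weeks. In bulk tissue, fewer cells of a type and less RNA per cell cannot be told apart.

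The linear reads at the same cap2.2 position were 295 and 299 at 3.5 weeks, 513 and 441 at 8.5 weeks, and 361 and 233 at 14 weeks. As CPM these were 3371 ± 638, 3805 ± 205 and 3194 ± 428 (SD, n = 2), and the ranges of the 3 ages overlapped except between 8.5 and 14 weeks. The youngest libraries overlapped with each older age, so the messenger of this actin regulator did not share the step of its circle. The fitted change from 3.5 to 8.5 weeks was log2 4.10 (SE 0.70) for circular reads and 0.18 (SE 0.22) for linear reads. From 8.5 to 14 weeks it was −0.21 (SE 0.53) and −0.25 (SE 0.22), and the circular change was 0.19 when scaled by the circular counts.

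The circular share of cap2.2, circular reads over circular plus linear reads, was 1.34% and 0.333% in the libraries of 3.5 weeks. It was 12.3% and 11.4% at 8.5 weeks and 9.98% and 14.7% at 14 weeks, so the youngest libraries again lay apart and the older ages overlapped. Pooled over libraries the shares were 0.835% (exact interval 0.272 to 1.94), 11.9% (10.04 to 13.99) and 11.9% (9.52 to 14.6). Between 3.5 and 8.5 weeks the rate of circular reads differed 18.4-fold (counting interval 7.68 to 57.6) and the share 14.3-fold. As a log2 change of the ratio of circular to linear reads, this was 3.98 (SE 1.13), and 0.03 (SE 0.97) from 8.5 to 14 weeks. With only 5 reads at 3.5 weeks the size of the step depends on 1 library: it was log2 5.55 without library 1 of 3.5 weeks and 3.27 without library 3.

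Cap2.1, which differs from cap2.2 by 92 bases at 1 end, showed the same order of ages at a lower level. It had 0 and 0 circular reads at 3.5 weeks, 7 and 7 at 8.5 weeks, and 3 and 5 at 14 weeks. With a floor of 3 reads over the group put in place of the 0 of 3.5 weeks, its rate was 3.33-fold higher at 8.5 weeks and 2.61-fold higher at 14 weeks. These ratios leave out the counting error of the older reads, so they are not lower limits. The 0 reads of 3.5 weeks, beside 485 linear reads, allow a share of up to 0.619%, while the shares of the older ages were 1.88% and 1.63%. By exact binomial intervals of pooled reads, the share of 3.5 weeks reaches up to 0.758%. That is below the interval of 8.5 weeks (1.03 to 3.13) but within that of 14 weeks (0.706 to 3.18). Pooling leaves out the spread between libraries. Taken singly, the libraries of 3.5 weeks reach up to 1.60% and 1.43%, within the intervals of both libraries of 8.5 weeks (0.726 to 3.67 and 0.794 to 4.01). Cap2.1 made up 14 of 143 circular reads of the host at 8.5 weeks (9.79%, exact interval 5.46 to 15.9) and 8 of 88 at 14 weeks (9.09%, 4.01 to 17.1). Each of these parts lies within the interval of the other, and cap2.2 led at both ages.

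Mylk4a.1 was read at all ages in muscle, with a peak at 8.5 weeks. It had 21 and 24 circular reads at 3.5 weeks, 62 and 51 at 8.5 weeks, and 22 and 28 at 14 weeks. The CPM was 253 ± 26.7, 450 ± 10.2 and 280 ± 95.04 (SD, n = 2), and both libraries of 8.5 weeks lay above the other 4. Its rank among muscle circles was 6, 10 and 8. Over the 292 muscle circles with 10 or more reads, the median fitted change was log2 1.23 from 3.5 to 8.5 weeks. From there to 14 weeks it was −0.56.

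Linear reads at mylk4a.1 were 183 and 342 at 3.5 weeks, 476 and 389 at 8.5 weeks, and 343 and 306 at 14 weeks. As CPM they were 2856 ± 685, 3440 ± 62.1 and 3560 ± 336 (SD, n = 2), so the mean at 14 weeks was not below that of 8.5 weeks, unlike that of the circle. The fitted circular changes were log2 0.83 (SE 0.51) to 8.5 weeks and −0.69 (SE 0.50) from there to 14 weeks, and the linear changes 0.26 and 0.05 (SE 0.22 each). Scaled by the circular counts in place of the linear ones, the circular changes were 0.57 and −0.29. The libraries of 14 weeks differed (213 and 348 CPM), and without library 2 of that age the later change was −1.07.

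The mylk4a.1 share was 10.3% and 6.56% at 3.5 weeks, 11.5% and 11.6% at 8.5 weeks, and 6.03% and 8.38% at 14 weeks. The 8.5-week libraries were again above the other 4. Pooled shares were 7.89% (5.82 to 10.4), 11.6% (9.62 to 13.7) and 7.15% (5.36 to 9.32). The intervals of 3.5 and 8.5 weeks overlapped, while those of 8.5 and 14 weeks did not. As a log2 change of the ratio of circular to linear reads, this was 0.54 (SE 0.97) from 3.5 to 8.5 weeks. From 8.5 to 14 weeks it was −0.76 (SE 0.97), so each change was smaller than its SE. In this kinase gene the pooled share of 14 weeks was close to that of 3.5 weeks, whereas for cap2.2 it stayed up. Over all circles in muscle, circular reads were 1.38%, 3.28% and 2.16% of the circular plus linear reads counted at the 1810 positions. Across the 3 ages, that part too was highest at 8.5 weeks. Whether mylk4a.1 departed from that general course was not tested. Mylk4a.2, offset from mylk4a.1 at both ends, had 2 and 2 reads at 8.5 weeks and 0 in the other 4 muscle libraries. It made up 4 of the 212 circular reads of the host in muscle (1.89%, 0.516 to 4.76), beside 2013 linear reads at its position.

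Filip1l.2 was highest in the youngest muscle. Muscle libraries held 71 and 44 circular reads at 3.5 weeks, 43 and 20 at 8.5 weeks, and 26 and 18 at 14 weeks. The CPM was 675 ± 347, 243 ± 90.3 and 238 ± 20.1 (SD, n = 2). Both libraries of 3.5 weeks lay above the older 4, but they were far from each other (920 and 430 CPM). Filip1l.2 ranked 3 among muscle circles at 3.5 weeks, 20 at 8.5 weeks and 10 at 14 weeks.

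Its linear reads were also highest at 3.5 weeks: 120 and 155 at that age, 97 and 70 at 8.5 weeks, and 80 and 46 at 14 weeks. As CPM these were 1534 ± 29.0, 659 ± 46.0 and 673 ± 144 (SD, n = 2), with the youngest libraries close to each other and clear of the rest. Circular reads changed by log2 −1.45 (SE 0.53) and linear reads by −1.21 (SE 0.27) from 3.5 to 8.5 weeks, and by −0.04 (SE 0.55) and 0.04 (SE 0.28) from there to 14 weeks; scaled by the circular counts, this last circular change was 0.38. The first circular change was −0.81 without library 1 of 3.5 weeks and −1.90 without library 3.

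The filip1l.2 share was 37.2% and 22.1% at 3.5 weeks, 30.7% and 22.2% at 8.5 weeks, and 24.5% and 28.1% at 14 weeks. The ages overlapped, and the pooled shares were 29.5% (25.0 to 34.3), 27.4% (21.7 to 33.6) and 25.9% (19.5 to 33.1). Circle and messenger thus differed by similar amounts in this host, with a change of the ratio of log2 −0.19 (SE 1.12) to 8.5 weeks. Filip1l.1, the long form, had 0 and 2 reads at 3.5 weeks, 5 and 0 at 8.5 weeks, and 0 and 3 at 14 weeks, which shows no order of ages. The linear reads at its position had the same order as at filip1l.2, from 958 ± 53.9 to 373 ± 46.9 CPM (log2 −1.35, SE 0.31).

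**Figure D2:**
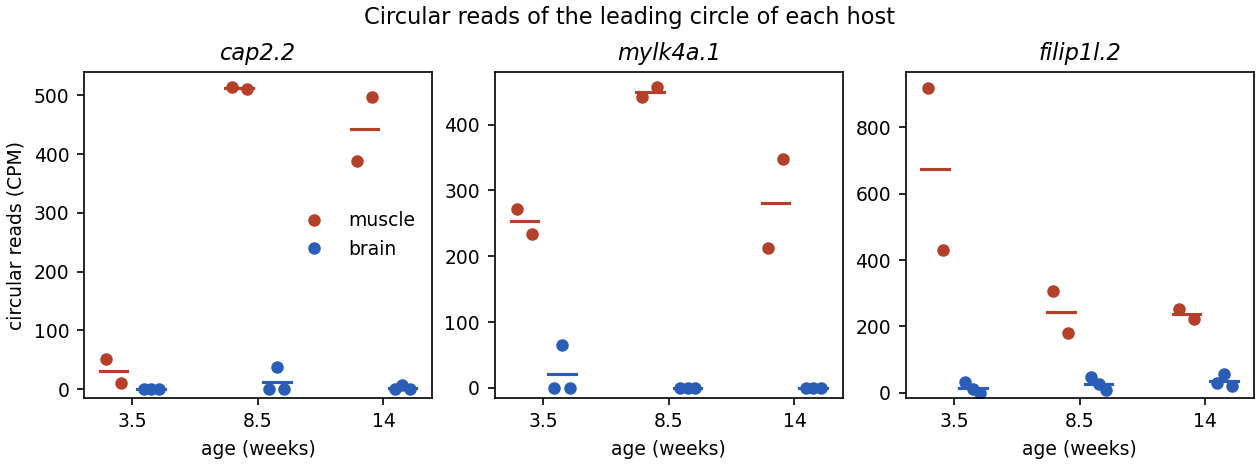
Circular reads of cap2.2, mylk4a.1 and filip1l.2 in CPM of linear reads, by age in weeks, with 1 point per library and a bar at the mean; muscle (2 libraries per age) and brain (3 per age) are in different colours. In muscle, cap2.2 is lowest at 3.5 weeks (mean 30.8 CPM), mylk4a.1 peaks at 8.5 weeks (450) and filip1l.2 is highest at 3.5 weeks (675).

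**Figure D3:**
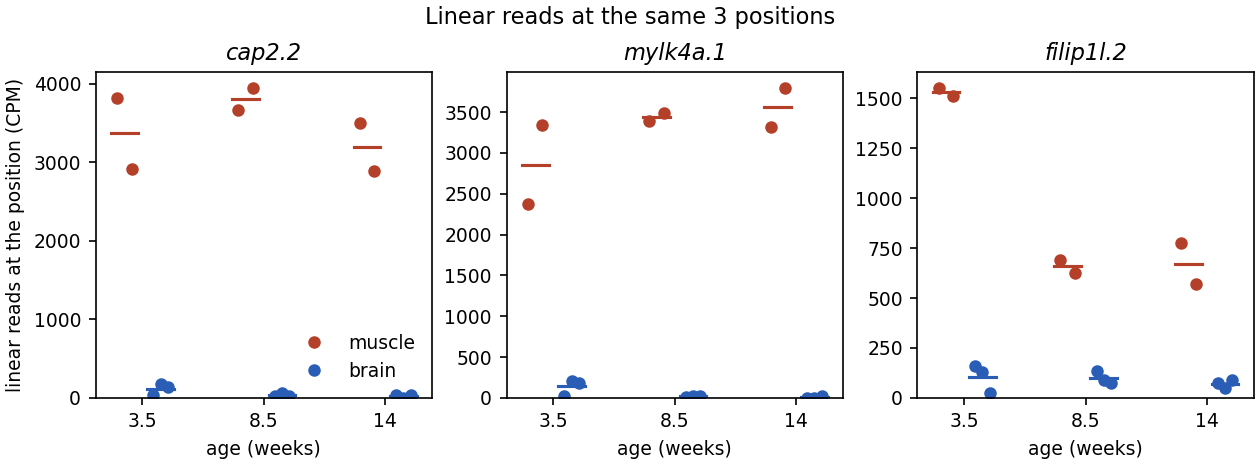
Linear reads at the positions of the same 3 circles in CPM, by age in weeks, drawn as for the circular reads. Muscle means lie between 3194 and 3805 for cap2.2 and between 2856 and 3560 for mylk4a.1, while filip1l.2 goes from a mean of 1534 at 3.5 weeks to 659 at 8.5 weeks.

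**Figure D4:**
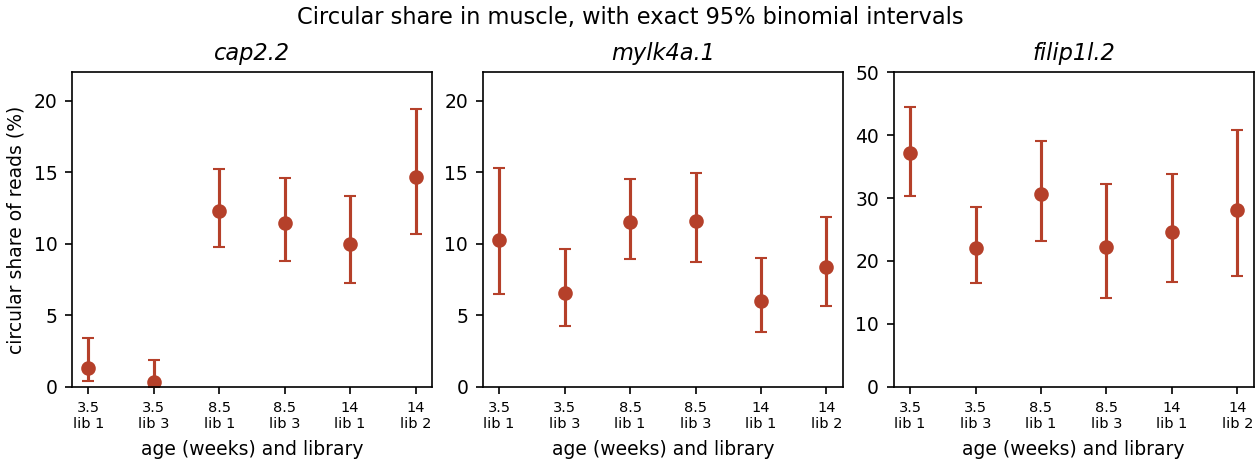
Circular share of reads in percent for the 3 circles in each muscle library, with exact 95% binomial intervals that cover counting error only. Cap2.2 steps from 1.34% or less to 9.98% or more, mylk4a.1 stays between 6.03% and 11.6%, and filip1l.2 between 22.1% and 37.2%.

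Against all muscle circles with 10 or more reads (292), 5 of the 6 passed this filter and mylk4a.2 did not. The median log2 change of circular reads over the 292 was 1.23 from 3.5 to 8.5 weeks, −0.56 from 8.5 to 14 weeks and 0.74 from 3.5 to 14 weeks, so the median circle was higher in both older groups than at 3.5 weeks. Scaling by the circular counts shifted these medians by −0.24, 0.40 and 0.16, and kept their signs. The linear medians were −0.05, 0.06 and 0.05. Of the 292, 75.7% had a lower fitted change to 8.5 weeks than cap2.2, 43.5% a lower one than mylk4a.1 and 9.59% a lower one than filip1l.2. Filip1l.2 thus went against the direction of the median circle, and mylk4a.1 lay near it. How many of the 292 have an age whose libraries lie apart from the rest, as these circles do, was not counted.

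Within muscle the hosts also differed in how much of their signal was circular. Pooled over the 6 muscle libraries, the share was 9.08% for cap2.2, 9.26% for mylk4a.1 and 28.1% for filip1l.2, beside a median of 16.0% over the 292 circles. The minor circles had 1.28% (cap2.1), 2.85% (filip1l.1) and 0.198% (mylk4a.2).

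In brain, filip1l.2 was the member that was read at all ages. It had 4, 1 and 0 circular reads in libraries 1 to 3 of 3.5 weeks, 5, 2 and 1 at 8.5 weeks, and 4, 8 and 2 at 14 weeks. These 27 reads made it the single member over the minimum of 10 for a brain test. The CPM was 14.96 ± 17.3, 27.7 ± 19.97 and 36.7 ± 19.1 (SD, n = 3), and the ages overlapped. The brain libraries did not enter the choice of hosts, so the age course there was tested with the edgeR quasi-likelihood test, called at an adjusted p under 0.05. The change from 3.5 to 14 weeks was log2 1.23 (SE 1.11, adjusted p = 0.822, edgeR), from 3.5 to 8.5 weeks 0.81 (SE 1.16, adjusted p = 0.855) and from 8.5 to 14 weeks 0.42 (SE 1.05, adjusted p = 0.994). With 3.5 weeks reduced to library 1, the changes from 3.5 weeks were 0.16 to 14 weeks and −0.28 to 8.5 weeks (adjusted p = 0.989 and 0.969). Leaving out 1 library moved the change to 8.5 weeks between 0.10 and 2.202 (without library 1 of 8.5 and of 3.5 weeks). It moved the change from 8.5 to 14 weeks between −0.07 and 1.14 (without library 2 of 14 and library 1 of 8.5 weeks), so no direction is read from either. None passed: 0 of 1 member tested, where all brain circles gave 0.156%, 0% and 0.156% called at 8.5 against 3.5, 14 against 8.5 and 14 against 3.5 weeks. Of the 639 circles tested in brain, 60, 31 and 63 had an unadjusted p under 0.05, with filip1l.2 at 0.488, 0.687 and 0.267. DESeq2 called 0 members too.

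Linear reads at filip1l.2 in brain were 19, 12 and 3 at 3.5 weeks, 14, 7 and 8 at 8.5 weeks, and 10, 7 and 8 at 14 weeks. The pooled brain share was 12.8% (4.30 to 27.4), 21.6% (9.83 to 38.2) and 35.9% (21.2 to 52.8), against 29.5%, 27.4% and 25.9% in muscle. The brain share thus had a rising order and the muscle share a falling one, but the intervals of the ages overlapped in both tissues. In muscle the change of the ratio from 3.5 to 14 weeks was log2 −0.21 (SE 1.13). The change of the ratio in brain from 3.5 to 14 weeks was log2 1.89 (SE 1.13, unadjusted p = 0.0988, adjusted p = 0.733, edgeR), and 1.34 with 3.5 weeks reduced to library 1. From 3.5 to 8.5 weeks it was 0.90 (SE 1.19, adjusted p = 0.868), or 0.35 with library 1 alone, and from 8.5 to 14 weeks 0.99 (SE 1.06, adjusted p = 0.996). Of all brain circles, 0% were called for share at 8.5 against 3.5 weeks, 0% at 14 against 8.5 and 0% at 14 against 3.5, with 42, 35 and 52 of 639 at an unadjusted p under 0.05. Whether the age course differed between tissues was not tested. The authors' deposited table for brain at 14 against 8.5 weeks lists filip1l.2 with a p-value of 0.214, and their table for 8.5 against 3.5 weeks lists 0 of the 6 circles among 251.

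The other 5 circles had 12 reads in all in brain. Cap2.2 had 3 reads in library 2 of 8.5 weeks and 1 in library 2 of 14 weeks; cap2.1 and filip1l.1 had 1 each, both in library 3 of 8.5 weeks. Mylk4a.2 had 0 reads over 9 libraries. Mylk4a.1 had 6, all in library 2 of 3.5 weeks, one of the pair with raised muscle marker reads; the other of the pair had 0. The 19 linear reads beside them make a share of 24.0% (9.36 to 45.1) in that library, above the 7.89% (5.82 to 10.4) of muscle at that age, with overlapping intervals. The part of muscle RNA in these 6 reads was not tested.

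Linear reads of cap2 and mylk4a in brain followed the same 2 libraries. At mylk4a.1 they were 3, 19 and 21 at 3.5 weeks, 1, 2 and 2 at 8.5 weeks, and 0, 0 and 2 at 14 weeks. At cap2.2 they were 4, 16 and 15, then 2, 5 and 2, then 4, 0 and 3. The 2 libraries with raised muscle markers had 15 to 21 reads at these positions and the other 7 had 0 to 5. Library 1 of 3.5 weeks thus lay nearer to the older brains than to the pair. Its 3 reads at mylk4a.1 were still above the 0 to 2 of the older brains. Its muscle marker part, 0.390%, was the highest of the other 7. Filip1l.2 did not share the pattern of the pair, with 3 and 12 reads in the pair and 7 to 19 in the others.

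Tested over the 9 brain libraries, mylk4a.1 linear reads were lower at 14 than at 3.5 weeks, with log2 −4.35 (SE 0.98, adjusted p = 0.0161, edgeR), the only one of 6 member positions past the threshold. Over all 1753 positions tested, 2.85% were called in this contrast, 2.62% at 8.5 against 3.5 weeks and 0% at 14 against 8.5 weeks. With 3.5 weeks reduced to library 1, the mylk4a.1 change was log2 −1.95. That fit leaves 1 library at 3.5 weeks, so loss of a call is not read from it. Leaving out some single libraries lost the call, at a size of change near that of all 9 libraries. This held in edgeR without library 2 (log2 −3.96, adjusted p = 0.0607) or library 3 (−4.05, 0.0897) of 3.5 weeks. It also held without library 1 (−3.76, 0.0803) or library 2 (−3.75, 0.119) of 14 weeks. At mylk4a.2 the change was log2 −3.38 (SE 0.98, adjusted p = 0.0789), and at cap2.2 −2.44 (SE 0.79, adjusted p = 0.137). The remaining positions had −1.70 (cap2.1, adjusted p = 0.369), −0.59 (filip1l.2, 0.685) and −1.21 (filip1l.1, 0.488). With library 1 alone at 3.5 weeks, the changes to 14 weeks were −1.44 (mylk4a.2), −0.74 (cap2.2), 0.41 (cap2.1), −1.18 (filip1l.2) and −1.94 (filip1l.1). At 8.5 against 3.5 weeks, 0 of 6 positions were called, 4 of them with an unadjusted p under 0.05, which were the cap2 and mylk4a positions; over all 1753 positions 259 had one. With library 1 alone at 3.5 weeks, these 4 changes lay between −0.83 and 0.03. At 14 against 8.5 weeks, 0 of 6 were called and 0 had an unadjusted p under 0.05, beside 65 of 1753. DESeq2, and its size factors in edgeR, also called 1 position in all.

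**Figure D5:**
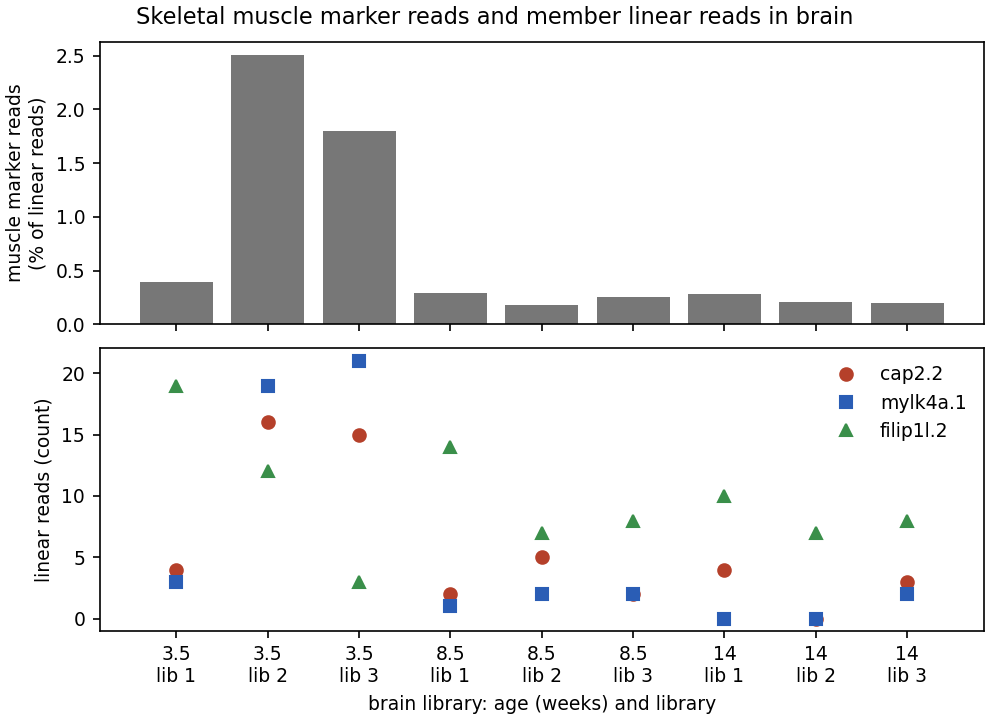
Upper panel: linear reads of skeletal muscle markers as a percent of all linear reads in each brain library, by age in weeks and library. Lower panel: linear reads at cap2.2, mylk4a.1 and filip1l.2 in the same libraries; libraries 2 and 3 of 3.5 weeks, at 2.504% and 1.80% markers, hold the highest cap2.2 and mylk4a.1 counts, and library 1 of that age holds the highest filip1l.2 count.

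Other genes of the actin and myosin machinery gave 21 circles from 15 hosts, listed by textbook function. Of these, 8 had enough reads for a muscle test and 4 for a brain test, and 0 were called at any contrast in either tissue by edgeR or by DESeq2. Over all 292 muscle circles, 1.37%, 0% and 0.342% were called at 8.5 against 3.5, 14 against 8.5 and 14 against 3.5 weeks, with 52, 3 and 26 at an unadjusted p under 0.05; the background for brain is given above. In muscle the median log2 change of the 8 was 1.52 to 8.5 weeks, −0.70 from there to 14 weeks and 1.26 over the whole span, beside 1.23, −0.56 and 0.74 over all circles. The fitted change was above 0 for 8, 1 and 6 of the 8, beside 71.6%, 27.7% and 64.0% of all 292 muscle circles. The counts and medians of the 8 cover only circles over the minimum of reads, summed over all ages. Mical2 (0, 9 and 2 reads at the 3 ages) and flnc.4 (0, 12 and 5) passed through their older reads. Below the minimum, raw reads fell from 3.5 to 8.5 weeks for myot.1 (5, 2), tln2a.1 (4, 0) and wasf1 (2, 0). From 0 they rose for mical3a (6), palld (5), pdlim2 (4), neb.1 (2), flnc.3 (3) and ppp1r12a (5). Circles of the same host, such as those of flnc, are not independent of each other. The change of filip1l.2 in muscle was below 0 in the first step. In brain the median of the 4 was 0.57, −0.03 and 0.52, beside 0.47, −0.19 and 0.34 over all brain circles.

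By role, actin turnover, the group of cap2, held 4 circles, of which mical2, from an enzyme that oxidises actin, was the 1 tested in muscle (0, 9 and 2 reads at the 3 ages). Coro2b, from a coronin that binds actin filaments, was the 1 tested in brain, with 5, 22 and 19 reads (log2 2.19 to 8.5 weeks, SE 0.89, adjusted p = 0.359). The light chain kinase and phosphatase group held 1 circle beside mylk4a, from the phosphatase subunit ppp1r12a, with 5 reads in muscle. Nucleation genes held 2 circles, with 0 tested.

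The cross-linking group, where filip1l was listed, held 14 circles, of which 7 were tested in muscle. Flnc.2, from filamin C of the Z-disc, had 368, 624 and 327 muscle reads at the 3 ages (log2 0.28 to 8.5 weeks, SE 0.36, adjusted p = 0.699). Myot.2, from the filament-bundling protein myotilin, had 28, 76 and 37 (log2 0.94, SE 0.58, adjusted p = 0.321). Flnc.1 had 6, 29 and 11 reads, and neb.2, from the filament ruler nebulin, 4, 27 and 12 (log2 2.28, SE 1.28, adjusted p = 0.267). All 4 had more reads at 8.5 weeks than at the other ages, which is also true of mylk4a.1 and of the libraries' circular totals.

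Across the 6 muscle libraries, likeness of course was measured as the root mean square difference of log2(CPM + 1), each circle centred on its own mean, over 89 circles of other hosts with 30 or more reads. Nearest to cap2.2 were atp2a1.3, from the calcium pump of fast muscle (0.57), gulp1, from an engulfment adaptor (0.64), and tm9sf4, from a transmembrane 9 family protein (0.89), where the median circle was at 2.06. They had 3, 71 and 28 reads, 4, 138 and 47, and 3, 32 and 20 at the 3 ages, so all 3 were near the floor at 3.5 weeks. Between 3.5 and 8.5 weeks the raw linear reads went from 1856 to 3777 at atp2a1.3, from 10 to 90 at gulp1 and from 35 to 52 at tm9sf4. At cap2.2 the raw linear reads went from 594 to 954, which was 1.15-fold when scaled to library size. Linear reads of the 3 neighbours were not scaled, so they cannot be set beside this scaled value. Nearest to mylk4a.1 were myot.2 (0.14), a circle with no annotated host on chromosome 11 (0.20) and myo18a, from an unconventional myosin (0.23), with the median at 1.08.

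Nearest to filip1l.2 were mllt10, from a chromatin-associated protein (0.34), atp1a2a.1, from a sodium pump subunit (0.39), and a circle with no annotated host on chromosome 12 (0.42), with the median at 1.69. Their reads were 24, 18 and 12, then 14, 9 and 10, then 24, 17 and 15 at the 3 ages. As raw counts, not scaled to library size, linear reads at 3.5 and 8.5 weeks were 275 and 167 for filip1l.2, 39 and 39 for mllt10, 1712 and 2301 for atp1a2a.1, and 70 and 93 for the circle with no host.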

How the data were processed

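The deposited tables hold raw counts of circular junction reads and of linear reads at the same 1810 positions, 1 column per library and 0 columns of other samples. The submitters' processing notes name STAR 2.5.2b. How circles were called, on which genome build, and what counted as a linear read is not given in the sources. The authors deposited p-values for 4 comparisons (bbTest, per the file headers), which carry no mark of adjustment. The members and the gene lists were chosen with earlier results of these data known, and the rule for the genes named was to give every circle of the 3 hosts, the called and the 4 most abundant muscle circles of the actin lists, and the 3 nearest circles by course.

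The quasi-likelihood F test of edgeR 4.0.16 (R 4.3.3) was run in 1 fit per tissue, over positions with 10 or more reads in that tissue, with Benjamini-Hochberg adjustment over all positions and a threshold of 0.05. Libraries were scaled by TMM of their linear counts. Standard errors are the absolute log2 change over the square root of F. Ratios were tested by pairing, in each library, a circular with a linear column. The scripts were tested on simulated data. Other settings were a minimum of 30 reads or none, scaling by the circular counts or by DESeq2 size factors, DESeq2 1.42.0 itself, leaving out single libraries, and a block for the replicate number. A fit with 3.5 weeks reduced to library 1 in brain was added after the data were seen. Replicate numbers are in the labels but do not say what they share. Of 12 replicate pairs 0 were identical, and the smallest chi-square per degree of freedom was 2.06, so each library counted as 1 sample.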

Additional observations from a re-analysis of the deposited data

Results flagged for a closer look

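Mean linear reads of mylk4a went opposite ways in the 2 tissues between 3.5 and 8.5 weeks, with no overlap between the ages in either tissue. At mylk4a.1 the margins were narrow. The nearest libraries of 3.5 and 8.5 weeks had 25.4 and 25.2 CPM in brain and 3340 and 3396 CPM in muscle. How many of all positions separate in this way was not counted, so the separation is not read as particular to mylk4a. In brain the change was not called at either position (adjusted p = 0.0781 at mylk4a.1 and 0.143 at mylk4a.2, edgeR). In brain the mean at mylk4a.1 went from 139 ± 99.5 to 17.7 ± 7.75 CPM (SD, n = 3), a difference of −122 CPM, while in muscle it went from 2856 ± 685 to 3440 ± 62.1 (SD, n = 2). At mylk4a.2 brain went from 103 ± 80.7 to 13.5 ± 4.22 CPM, a difference of −89.4 CPM, and muscle went from 2575 ± 142 to 3554 ± 648. The 2 positions overlap, so they are not separate cases, and the difference between tissues was not tested. In brain, library 1 of 3.5 weeks had 3 linear reads at each position, beside 1 to 2 in the libraries of 8.5 weeks. The other 2 libraries of 3.5 weeks, with 11 to 21 reads, are those with 2.504% and 1.80% skeletal muscle marker reads; their part in the result was not tested.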

How the results depend on the processing

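No member circle was called in brain for circular reads or share, and no actin list circle in either tissue, under any alternative run. Of the 6 member positions, 1 was called for linear reads in brain; under the replicate block this was 2 (mylk4a.1 and mylk4a.2, adjusted p = 0.0468 for the latter), and mylk4a.1 also passed at 8.5 against 3.5 weeks (0.0363). Leaving out 1 library gave 0 to 3, with 3 without library 1 of 3.5 weeks, 2 without library 3 of 14 weeks and 0 when either library 2 or 3 of the youngest brains, or library 1 or 2 of the oldest, was absent. The fit with 3.5 weeks reduced to library 1 leaves 1 library at that age, so no count of member positions is read from it. Brain samples with the same number did not deviate together (r from −0.206 to 0.0744 over 9 pairs). In muscle r was −0.0893 to 0.0228 over 4 pairs, but with 2 libraries per age the deviations mirror each other. Both muscle pairs of 3.5 and 8.5 weeks thus gave r = 0.00685 and are not separate checks. The replicate numbers are not taken as pairs.

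Of 351 single brain values, 322 kept their direction and side of the threshold, 7 gained and 5 lost the call, and 17 moved, their cause not tested. Of 108 values of the muscle course, 10 moved by more than the SD between replicates: cap2.2 and filip1l.2 without library 1 of 3.5 weeks, and mylk4a.1, which from 3.5 to 14 weeks had log2 0.14, −0.28 under the block and −0.24 without library 2 of 14 weeks. With TMM of the circular counts, the changes from 8.5 to 14 weeks were 0.19 for cap2.2 and 0.38 for filip1l.2, against −0.21 and −0.04. With circular and linear reads each summed over both positions, host shares at the 3 ages were 0.469%, 7.80% and 7.95% (cap2), 4.53%, 6.26% and 3.69% (mylk4a) and 21.1%, 19.7% and 19.4% (filip1l). The linear reads of both overlapping positions enter these sums, so the values lie below the shares of the leading circles. Of the 9 values, 7 differed from the share of the leading circle by more than the SD between replicates.

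Calls over all circles varied more: at 8.5 against 3.5 weeks in muscle there were 4, and 26 with DESeq2, 7 at a minimum of 30 reads, 12 under the block and 0 to 22 without 1 library. At 14 against 3.5 weeks 1 became 2 (TMM of the circular counts, DESeq2 or no filter) and 0 to 4 without 1 library. In brain, 1 circle at 8.5 against 3.5 weeks became 0 (DESeq2, block), 2 (minimum of 30 reads) or 0 to 4 without 1 library. At 14 against 3.5 weeks 1 became 0 (TMM of the circular counts, DESeq2, no filter, block), and 2 with 3.5 weeks reduced to library 1. For share at that contrast 0 became 1 at a minimum of 30 reads. With 3.5 weeks reduced to library 1, called linear positions in brain were 9 and 6 instead of 46 and 50 at 8.5 and 14 weeks, and as few as 19 at each without 1 library. Counts of a few reads per library limit the brain values and the minor circles.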
